A study of Mus musculus with 57 samples.

Results

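A set of 10 genes that carry fatty acids from circulating lipoproteins into the adipocyte and activate them there were followed through 3 adipose tissue datasets of mice with a mutation in mitofusin 2 (Mfn2). The genes were Lpl, Gpihbp1, Angptl4, Vldlr, Cd36, Slc27a1, Fabp3, Fabp4, Fabp5 and Acsl1. They were picked by symbol for their role, with earlier results of these data known, and are 10 of the 52853 genes with a count. All 10 passed the filter on low counts in every comparison. The mice were male, on a C57BL/6J background, and either wild type (WT) or homozygous for the p.Arg707Trp knock-in (KI) in the endogenous Mfn2 gene, from a line that goes back to a single founder, so every cell type of a KI mouse carried the allele. Bulk RNA sequencing covered inguinal white adipose tissue (WAT) from 7 WT and 6 KI mice on chow, inguinal WAT from 8 WT and 8 KI mice on a high-fat diet (HFD, 45% of calories from fat), and interscapular brown adipose tissue (BAT) from 6 WT and 6 KI mice on HFD. Both diets started at 5 weeks of age and lasted 6 months. For inguinal WAT on HFD, 16 libraries per genotype were registered for 8 mice, as technical repeats that the count table holds as 1 column per mouse.

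Triglycerides reach adipose tissue inside chylomicrons and very low density lipoproteins. Lipoprotein lipase, encoded by Lpl and secreted by adipocytes, is carried to the capillary wall by Gpihbp1, an endothelial protein that anchors it there, while Angptl4 inactivates the enzyme and Vldlr binds triglyceride-rich particles. The fatty acids that are set free cross the plasma membrane with the help of the scavenger receptor Cd36 and of Slc27a1 (FATP1), are held in the cytosol by fatty acid binding proteins of the Fabp family, and become usable once an acyl-CoA synthetase such as Acsl1 couples them to coenzyme A. Fabp4 is the abundant binding protein of adipocytes, Fabp5 is found in many cell types including macrophages and lymphocytes, and Fabp3 belongs to heart, skeletal muscle and brown fat.

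Depth was 8668279 to 11720458 counts per mouse for inguinal WAT on chow, 17572752 to 25680411 for inguinal WAT on HFD and 8042591 to 10522554 for BAT, and the 10 genes took between 1.67% and 4.03% of these. Adipocyte markers were high in all 41 columns (summed level 10308 to 30495 CPM, counts scaled by TMM library size), and brown adipocyte markers summed to 12697 to 23055 CPM in BAT against 61.1 to 1116 in inguinal WAT. Other tissue was present in some samples. Skeletal muscle markers summed to 79321 CPM in chow KI mouse 4, where the other 40 columns lay between 4.04 and 4716, and lymphocyte markers exceeded 100 in 1 WT and 2 KI mice on chow and in 2 WT and 1 KI mice on HFD. In bulk tissue fewer cells of a type cannot be told apart from less RNA per cell. Mfn2 itself was measured at 160 ± 20.7 CPM in WT and 202 ± 25.8 in KI inguinal WAT on HFD (SD, n = 8 each), but a changed codon leaves the count of a transcript unmarked, so this level does not check the labels.

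All levels are given in CPM on 1 scale over the 41 columns, and genotypes were compared with edgeR's quasi-likelihood test, with 0.01 as the limit of the adjusted p for a call. In inguinal WAT on HFD, 2 of the 10 genes were lower in KI mice, Acsl1 and Fabp5, and none was higher, where 5.24% of all 16471 genes tested were lower and 6.21% higher. In inguinal WAT on chow none of the 10 was called by edgeR, where 1.96% of 14629 genes were higher and 1.27% lower. There 2 of the 10 had an unadjusted p below 0.05, and DESeq2 called 1 (Fabp3). In BAT on HFD, 1 of the 10 was higher, Fabp3, and none was lower, where 1.36% of 13267 genes were higher and 0.475% lower. Over the 10 genes the log2 fold changes had medians of -0.15, 0.15 and 0.06 in these 3 comparisons, beside 0.01, -0.01 and -0.01 over all genes. The groups did not overlap for 2 of the 10 genes in BAT, where 3.69% of all genes were so separated, and overlapped for all 10 in inguinal WAT on HFD and on chow, where 4.53% and 4.22% of all genes were separated.

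**Figure D1:**
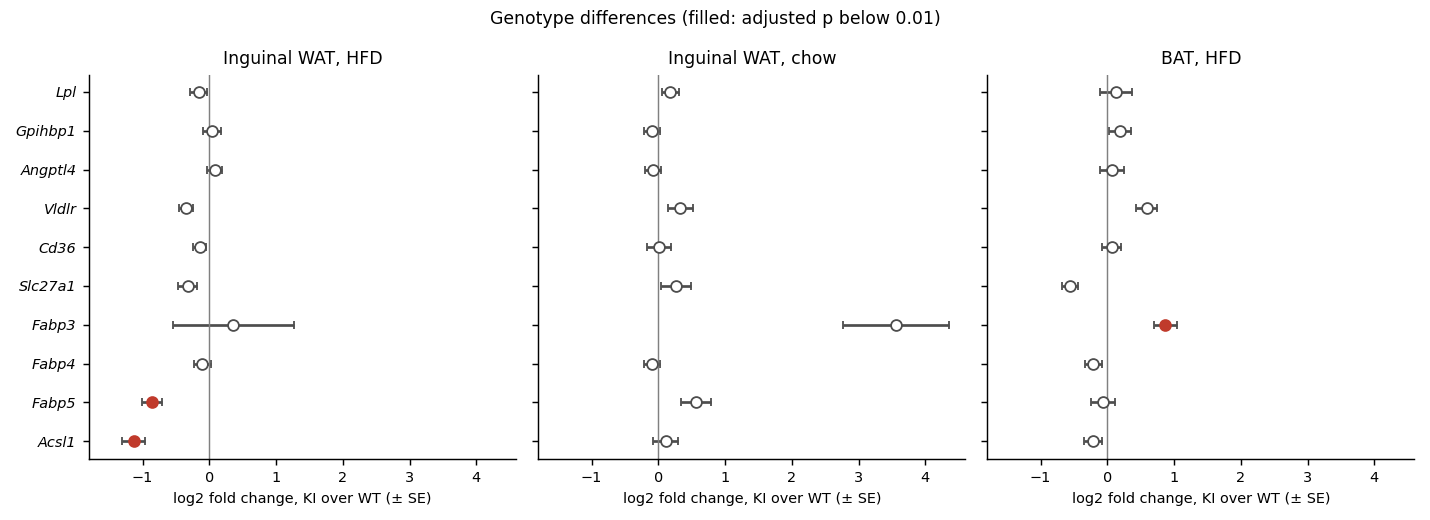
Log2 fold change of KI over WT mice (x axis) for each of the 10 genes (y axis) in the 3 tissue and diet settings; bars are standard errors and filled points mark an adjusted p below 0.01. Acsl1 (-1.13) and Fabp5 (-0.86) were called in inguinal WAT on HFD and Fabp3 (0.87) in BAT, while Lpl, Gpihbp1, Angptl4, Cd36 and Fabp4 were called in no panel and lay between -0.21 and 0.19.

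Within each group the genes covered a wide range of abundance. Compared per kilobase of gene length (RPKM, from the lengths in the count files), Fabp4 was highest in all 4 inguinal groups, at 4205 ± 715 RPKM in WT mice on HFD (SD, n = 8), followed by Cd36 at 895 ± 89.0 and Lpl at 550 ± 83.9. Angptl4 (199 ± 21.8 RPKM), Gpihbp1 (146 ± 38.9) and Acsl1 (133 ± 38.1) followed in that group, each with a range over mice that overlapped that of the next gene down. Fabp5 (90.8 ± 16.4 RPKM) and Slc27a1 (73.3 ± 17.99) overlapped as well, and Vldlr (12.7 ± 1.77) and Fabp3 (4.73 ± 6.72) came last. BAT differed in this order by 1 gene above all. Fabp3 stood level with Fabp4 in WT BAT (3378 ± 729 and 3440 ± 249 RPKM, n = 6, ranges overlapping) and above it in KI BAT (6356 ± 1197 and 3053 ± 290, n = 6, ranges apart).

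The order of genes rests on the length chosen. The length in the files is the union of all annotated exons, retained introns included, and for Fabp4 it comes to 4489 bases against 896 for its principal transcript in GENCODE vM21. With principal transcript lengths 22 of the 60 places (10 genes in 6 groups) stayed as they were, Lpl moved above Cd36 in every group, and Fabp4 in KI BAT (15294 RPKM) stood above Fabp3 (6356). Fabp4 was then first in all 6 groups. Differences of 1 gene between groups do not depend on its length.

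**Figure D2:**
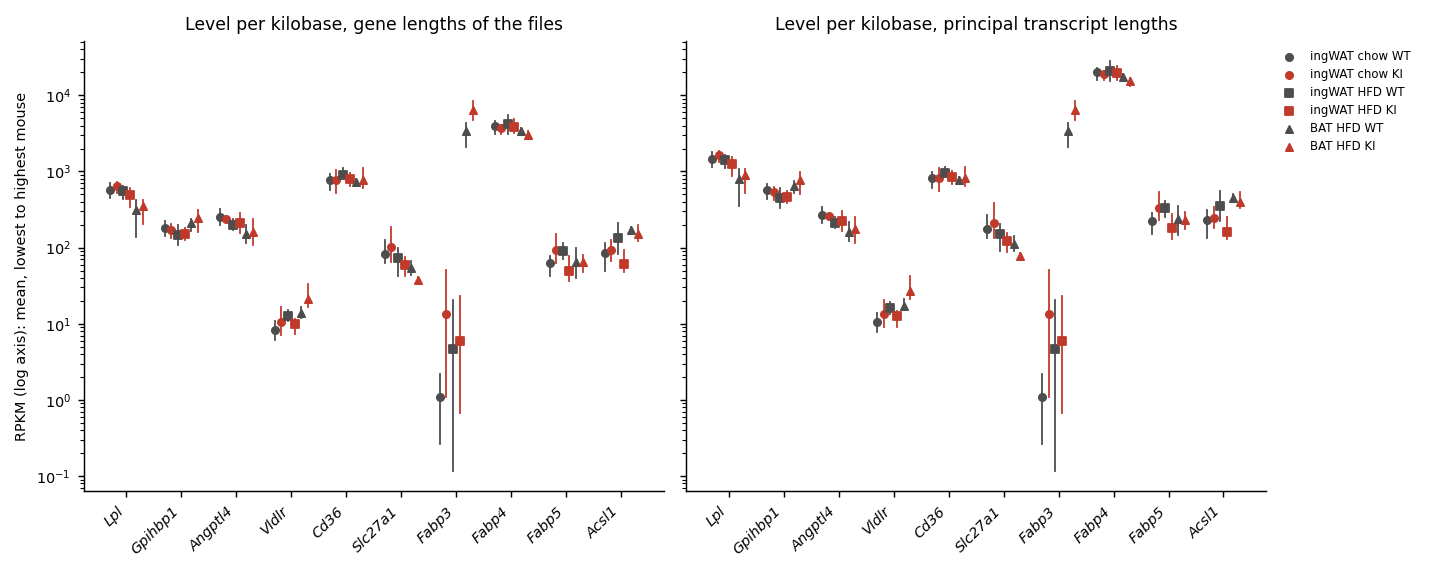
Level of each gene per kilobase (RPKM, log y axis) in the 6 groups, with the gene lengths of the count files (left) and of the principal transcripts (right); points are group means and lines run from the lowest to the highest mouse, grey for WT and red for KI. Fabp4 lies at 3053 to 4205 RPKM on the left and 15294 to 21069 on the right, and Fabp3 moves from 1.09 to 13.3 in inguinal WAT to 3378 and 6356 in BAT.

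Lpl, on chromosome 8 (68880491 to 68907448, GRCm38), was expressed at 4516, 5949 and 6842 CPM (lowest, median and highest mouse) in WT inguinal WAT on HFD and at 3551, 5202 and 6436 in KI mice. On chow the values were 4725, 5823 and 7320 in WT and 5429, 7071 and 7560 in KI mice. In BAT they were 1458, 3306 and 4457 in WT and 2161, 3803 and 4427 in KI mice, the lowest being mouse 5 in each genotype. The genotypes overlapped in all 3 settings, and the log2 fold change of KI over WT was -0.16 (SE 0.12, adjusted p = 0.405), 0.18 (SE 0.13, adjusted p = 0.412) and 0.13 (SE 0.24, adjusted p = 0.773). Every WT BAT sample lay below every WT inguinal sample on HFD.

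Gpihbp1, which marks the capillary side of the system (chromosome 15, 75596628 to 75599481), was found at 272, 327 and 502 CPM in WT and 319, 373 and 463 CPM in KI inguinal WAT on HFD. WT mice on chow had 363, 471 and 567 CPM, and KI mice 346, 442 and 523. In BAT it was 427, 556 and 613 CPM in WT and 411, 606 and 800 CPM in KI mice. The genotypes overlapped in each setting (log2 fold changes 0.05, -0.10 and 0.19, SE 0.12 to 0.16, adjusted p = 0.860, 0.665 and 0.504). Since Gpihbp1 is endothelial, it was also set against 12 endothelial markers of the same mouse, none of which was called in any of the 3 comparisons. Their median log2 fold changes were -0.03 on HFD, -0.18 on chow and -0.20 in BAT. The ratio in BAT thus takes in lower estimates of the markers as well as a higher one of Gpihbp1. The log2 ratio of Gpihbp1 to their geometric mean in BAT was 1.48 ± 0.10 in WT and 1.79 ± 0.23 in KI mice (SD, n = 6 each), a difference of 0.30 with an exact 2-sided permutation p of 0.0130 (0.0468 adjusted over 18 ratios). In inguinal WAT the same difference was 0.10 on HFD and 0.12 on chow (exact permutation p = 0.377 and 0.343, both 0.521 when adjusted).

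Angptl4, the secreted inhibitor of the lipase (chromosome 17, 33773750 to 33781830), had 601, 724 and 830 CPM in WT and 550, 693 and 1001 CPM in KI inguinal WAT on HFD. On chow the lowest, median and highest values were 696, 891 and 1127 CPM in WT and 779, 847 and 926 in KI mice, and in BAT 403, 524 and 709 in WT and 383, 549 and 834 in KI mice. The genotypes overlapped throughout, with log2 fold changes of 0.08, -0.08 and 0.07 (SE 0.11 to 0.18, adjusted p = 0.687, 0.712 and 0.856). The balance between inhibitor and enzyme within a mouse, as the log2 ratio of Angptl4 to Lpl, was -2.75 ± 0.18 in WT (n = 7) and -3.01 ± 0.22 in KI mice (n = 6) on chow, and this difference did not pass correction (exact permutation p = 0.0431, adjusted 0.0970).

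Vldlr, the receptor (chromosome 19, 27216484 to 27254231), was the member of this group with the largest genotype differences. In inguinal WAT on HFD it was measured at 108, 123 and 153 CPM in WT and 73.0, 106 and 116 CPM in KI mice, with 5 of 8 KI mice below every WT mouse. In BAT it was 122, 133 and 169 CPM in WT and 169, 197 and 340 CPM in KI mice, with 5 of 6 KI mice above every WT mouse. These differences had opposite signs, -0.35 (SE 0.11, adjusted p = 0.0224) in inguinal WAT on HFD and 0.59 (SE 0.16, adjusted p = 0.0319) in BAT, and neither was called by edgeR. DESeq2 called the value in BAT. The exact permutation tests of single-mouse values gave p = 0.00482 and 0.00433 (both 0.0206 adjusted over 30 tests). The difference between the tissues was itself called, with a genotype-by-tissue term of 0.98 (SE 0.19, adjusted p = 0.00148 from edgeR), and remained called whichever of the 28 mice was left out (0.80 to 1.05). BAT KI mouse 5 held the highest value, 340 CPM, and without it the BAT difference was 0.43. On chow the values were 61.3, 82.5 and 111 CPM in WT and 72.1, 98.8 and 165 CPM in KI mice (log2 fold change 0.33, SE 0.19, adjusted p = 0.298).

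**Figure D3:**
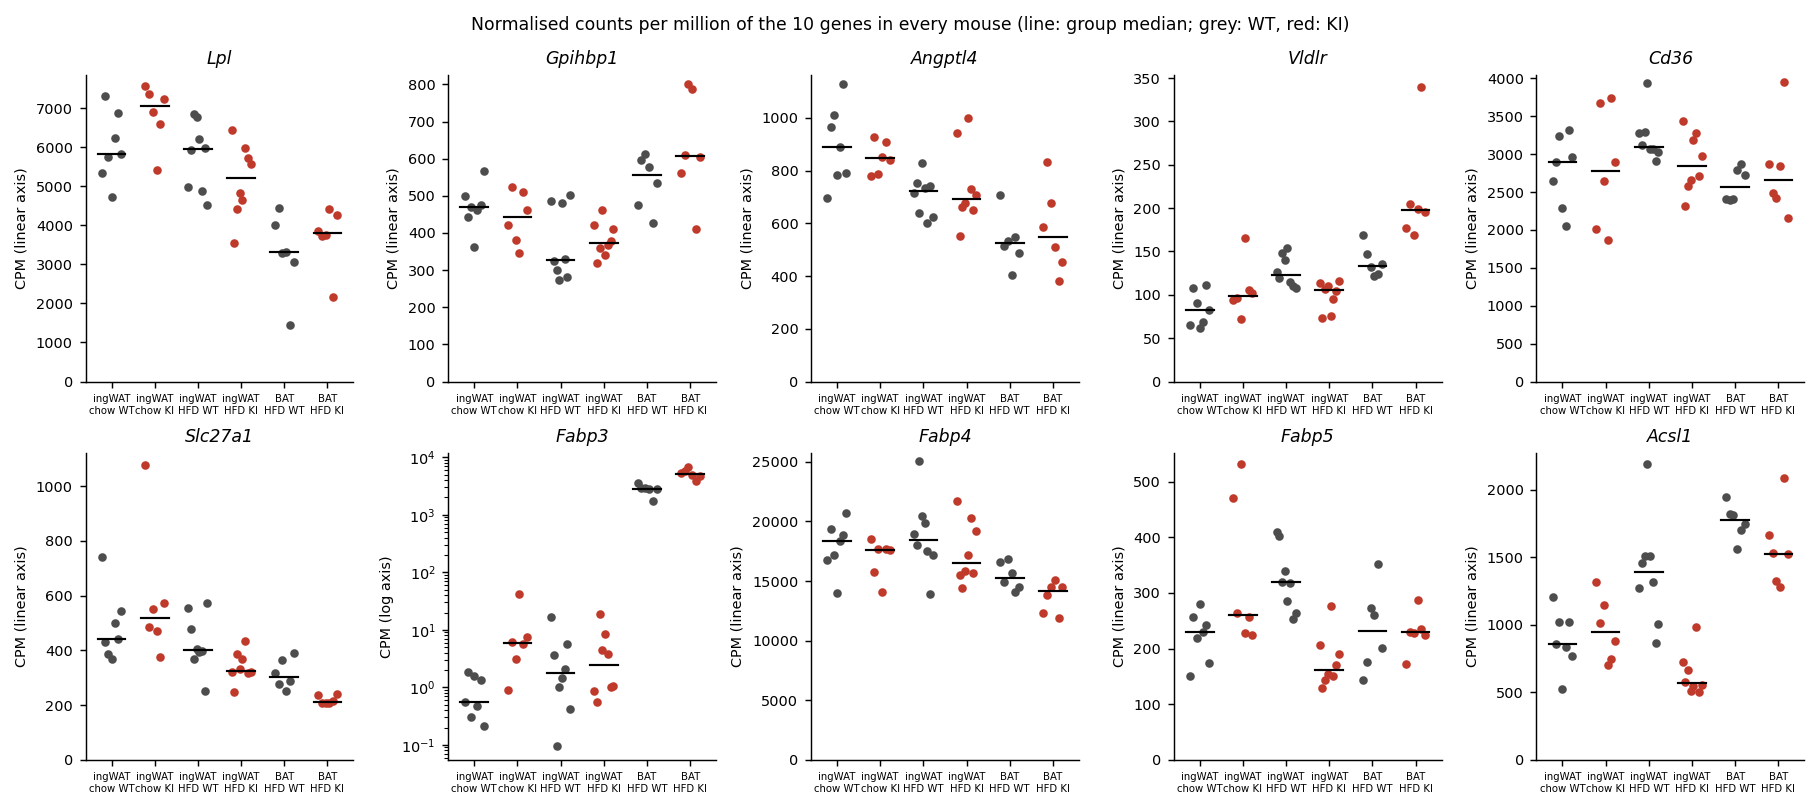
CPM of each gene in every mouse of the 6 groups (x axis: tissue, diet and genotype; y axis linear from 0, logarithmic for Fabp3); each point is 1 mouse and the line is the group median, grey for WT and red for KI. In inguinal WAT on HFD 7 of 8 KI mice lie below every WT mouse for Acsl1 and for Fabp5, and in BAT all 6 KI mice lie above every WT mouse for Fabp3 and below every WT mouse for Slc27a1.

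The 2 membrane proteins gave different pictures. Cd36 (chromosome 5, 17781690 to 17888801) was called in no genotype comparison, with 2906, 3098 and 3941 CPM in WT and 2320, 2842 and 3432 CPM in KI inguinal WAT on HFD. It lay at 2046, 2898 and 3312 CPM in WT and 1873, 2774 and 3734 in KI mice on chow. In BAT the values were 2390, 2566 and 2864 CPM in WT and 2161, 2664 and 3946 CPM in KI mice. The genotypes overlapped throughout and the log2 fold changes were -0.15, 0.01 and 0.06 (SE 0.09 to 0.18, adjusted p = 0.300, 0.980 and 0.831). The coefficient of variation of Cd36 ran from 8.40% (WT BAT) to 28.2% (KI inguinal WAT on chow). As for Lpl, every WT BAT sample lay below every WT inguinal sample on HFD, without a call (-0.31, adjusted p = 0.0191 from edgeR). How many of all genes were separated in this way was not counted, and 29.0% of 17214 were called lower in BAT.

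Slc27a1 (chromosome 8, 71568882 to 71587302) was lower in every KI than in every WT mouse in BAT. The WT mice had 252, 303 and 392 CPM and the KI mice 207, 211 and 241 CPM. The log2 fold change of -0.57 (SE 0.12) narrowly missed the call with an adjusted p of 0.010046, and it was called by DESeq2, with no low-count filter and with mitochondrially encoded genes left out. It was called in only 1 of the 12 fits that left out 1 mouse (-0.62 to -0.49, adjusted p = 0.00841 to 0.0342 from edgeR). The fit of all 6 groups did not call it. The exact permutation p was 0.00216 (adjusted 0.0162), the smallest that 924 divisions of 12 mice can give. The log2 ratio of Slc27a1 to Cd36 moved with it, from -3.05 ± 0.30 in WT to -3.65 ± 0.34 in KI BAT (SD, n = 6 each, exact permutation p = 0.0130, adjusted 0.0468). In inguinal WAT the ranges overlapped. On HFD they were 250, 403 and 571 CPM in WT and 247, 326 and 434 CPM in KI mice (log2 fold change -0.32, SE 0.14, adjusted p = 0.119). On chow they were 369, 441 and 740 CPM in WT and 376, 517 and 1079 CPM in KI mice (0.26, SE 0.23, adjusted p = 0.508), with the highest value in KI mouse 1, and the log2 fold change was 0.021 without that mouse.

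The binding proteins are related genes, and a first point is whether their reads can be told apart. Coding sequences from GENCODE vM21 transcripts were 66.24% identical between Fabp3 and Fabp4, 57.93% between Fabp3 and Fabp5 and 61.87% between Fabp4 and Fabp5. The longest run shared by Fabp3 and Fabp4, the most alike pair, had 14 bases. It is shown here in capitals within bases 56 to 109 of both coding sequences, because the contrast between these genes depends on their reads being separable.

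Fabp3: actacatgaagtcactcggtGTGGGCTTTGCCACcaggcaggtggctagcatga
Fabp4: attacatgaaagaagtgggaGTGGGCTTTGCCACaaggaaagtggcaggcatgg

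Fabp3 and Fabp5 shared at most 10 bases and Fabp4 and Fabp5 at most 12, much shorter than a read. Runs of 75 bases were shared by Fabp3 with its pseudogene Fabp3-ps1 (1238 counts in all mice against 335778 for Fabp3) and by Fabp5 with Gm14328 and Gm6166 (275 and 269 counts against 156509). Fabp3 also overlaps Zcchc17 on the other strand, with 7 such runs and 91832 counts for Zcchc17. Whether counting used strand is not given in the sources used here. These totals pool both tissues, while Fabp3 had 12271 to 47038 counts per mouse in BAT and 2 to 493 in inguinal WAT. The part of reads from Fabp3-ps1 or Zcchc17 in the low inguinal counts of Fabp3 was not tested. Lpl shared such runs with 43 other genes, and the remaining members with at most 1.

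Fabp4 (chromosome 3, 10204088 to 10208576) had 13936, 18479 and 25101 CPM in WT and 14396, 16494 and 21714 CPM in KI inguinal WAT on HFD. On chow the values were 14019, 18326 and 20698 in WT and 14071, 17638 and 18507 in KI mice. In BAT they were 14112, 15295 and 16840 in WT and 11887, 14160 and 15125 in KI mice. All ranges overlapped, and the differences were -0.11, -0.09 and -0.21 on the log2 scale (SE 0.12 to 0.13, adjusted p = 0.605, 0.694 and 0.311). Across the 6 groups the coefficient of variation of Fabp4 was 7.24% to 17.0%.

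Fabp5, which lies on the same chromosome (10012548 to 10016607), fell in KI inguinal WAT on HFD. The WT mice had 253, 319 and 409 CPM and the KI mice 130, 162 and 276 CPM. Of the 8 KI mice, 7 lay below every WT mouse, the exception being mouse 5. The log2 fold change was -0.86 (SE 0.14, adjusted p = 2.94e-04 from edgeR), it was called without each of the 16 mice in turn (-0.98 to -0.81), and the exact permutation p was 4.66e-04 (adjusted 0.00699). Relative to Fabp4 in the same mouse, the log2 ratio went from -5.87 ± 0.28 in WT to -6.65 ± 0.32 in KI mice (SD, n = 8 each, exact permutation p = 6.22e-04, adjusted 0.0112). Among marker lists, macrophage markers, a cell type that also contains Fabp5, summed to 892, 1335 and 1766 CPM (lowest, median and highest) in WT and 693, 962 and 2146 CPM in KI mice. The highest sum was that of KI mouse 5, also the highest in Fabp5, the other 7 KI mice had 693 to 1055, and 1 of 12 was called (Itgax, lower in KI mice). Their part in the result was not tested.

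On chow the direction of Fabp5 was the other one, without a call. WT mice had 150, 230 and 281 CPM and KI mice 225, 260 and 532 CPM (log2 fold change 0.56, SE 0.23, adjusted p = 0.142). The highest values, 471 and 532 CPM, belonged to KI mice 1 and 3, in which the lymphocyte markers summed to 139 and 543 CPM where the other 4 KI mice had 9.04 to 12.8. On HFD the KI mouse with the highest lymphocyte sum, mouse 2 with 866 CPM, had the lowest Fabp5 of its group. The WT mouse with the highest Fabp5 on chow, mouse 4, had sums of 140 CPM for lymphocyte, 3256 for macrophage and 133 for epithelial markers. The other WT mice on chow had macrophage sums of 890 to 1821 CPM. The part of lymphocytes, macrophages or other cells in these values was not tested. In BAT, Fabp5 had 143, 231 and 352 CPM in WT and 172, 229 and 287 CPM in KI mice (log2 fold change -0.06, SE 0.18, adjusted p = 0.870), and no lymphocyte sum exceeded 16.6 CPM.

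Fabp3 (chromosome 4, 130308595 to 130315463) rose in KI BAT. The WT mice had 1718, 2848 and 3587 CPM and the KI mice 3937, 5087 and 6835 CPM, so that every KI mouse exceeded every WT mouse. The log2 fold change was 0.87 (SE 0.18, adjusted p = 0.00829 from edgeR), the exact permutation p was 0.00216 (adjusted 0.0162), and the log2 ratio to Fabp4 moved from -2.50 ± 0.28 to -1.40 ± 0.24 (SD, n = 6 each, exact permutation p = 0.00216, adjusted 0.0195). Skeletal muscle markers, of a tissue that also contains Fabp3, were highest in WT mice 1 and 2 (3307 and 3755 CPM) and lay between 4.04 and 1034 CPM in KI mice, and the difference was 1.04 without the 3 BAT mice above 1000 CPM. Brown adipocyte markers summed to 12697, 15579 and 18265 CPM (lowest, median and highest) in WT and 14760, 20303 and 23055 CPM in KI BAT. Their median log2 fold change was 0.27, with 0 of 10 called (edgeR). The part of muscle or of brown adipocytes in the Fabp3 result was not tested. The call of Fabp3 was close to the threshold. It was lost when WT mouse 2, 3, 4 or 6 or KI mouse 1, 2, 3 or 4 was left out (adjusted p = 0.0122 to 0.0244, log2 fold change 0.79 to 0.89) and in a single fit of all 6 groups (0.91, SE 0.74, adjusted p = 0.458).

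In inguinal WAT, Fabp3 was a rare transcript. On chow the WT mice had 0.217, 0.547 and 1.81 CPM, or 2 to 21 counts, and the KI mice 0.895, 5.89 and 42.1 CPM, or 9 to 429 counts. Of the 6 KI mice, 5 lay above every WT mouse, and the log2 fold change of 3.56 (SE 0.79, adjusted p = 0.0140 from edgeR) was not called there but was called by DESeq2, by the fit of all 6 groups and without KI mouse 1 (3.82, adjusted p = 0.00750). KI mouse 4, with 42.1 CPM, was the sample in which skeletal muscle markers summed to 79321 CPM, and without it the log2 fold change was 2.35 (adjusted p = 0.0190). The other 5 KI mice had muscle sums of 42.0 to 350 CPM with Fabp3 at 0.895 to 7.52. WT mice 2 and 6, with the highest muscle sums of their group (837 and 765), had Fabp3 at 1.81 and 1.31 CPM, above the WT median of 0.547. Brown adipocyte markers summed to 239 to 1116 CPM in KI and 79.6 to 211 CPM in WT mice on chow, without overlap, and of the 6 tested Cidea and Cox8b were called higher. The part of muscle or of brown adipocytes in the Fabp3 values on chow was not tested. On HFD, Fabp3 ran from 0.0960 to 16.8 CPM in WT and from 0.550 to 19.1 CPM in KI mice (log2 fold change 0.36, SE 0.91, adjusted p = 0.834), and the highest mouse of each genotype, WT mouse 1 and KI mouse 3, had muscle sums of 1357 and 4716 CPM.

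**Figure D4:**
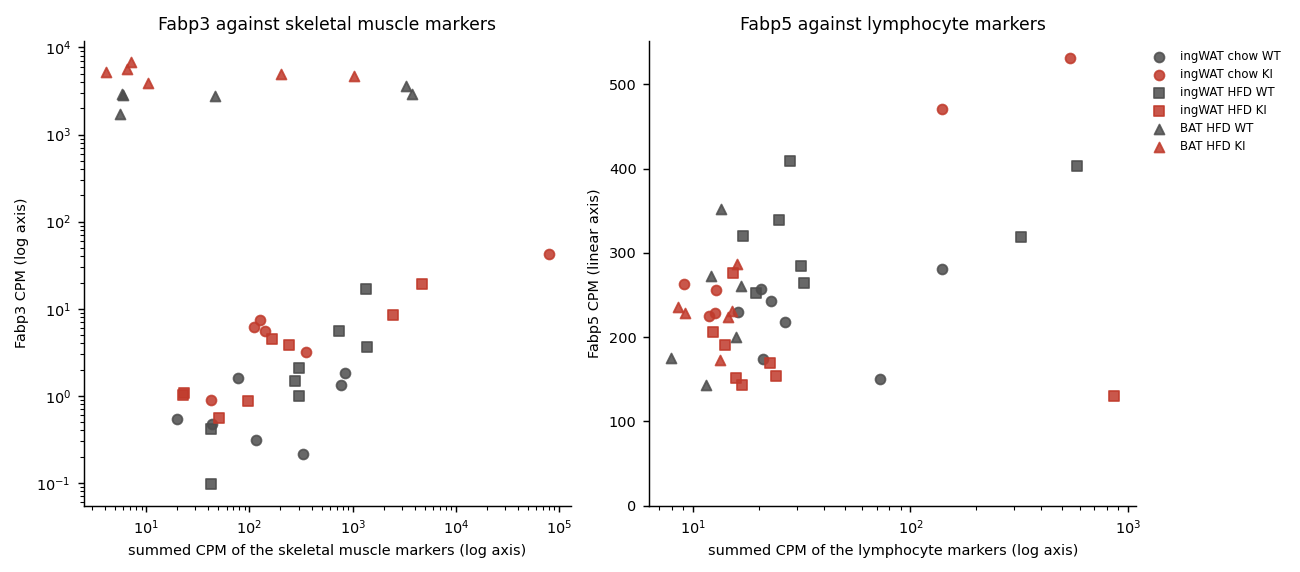
Left, Fabp3 CPM (log y axis) against the summed CPM of skeletal muscle markers (log x axis); right, Fabp5 CPM (linear y axis) against the summed CPM of lymphocyte markers (log x axis); each point is 1 mouse and tissue, grey for WT and red for KI, with circles for inguinal WAT on chow, squares for inguinal WAT on HFD and triangles for BAT. The 12 BAT points lie at 1718 to 6835 CPM of Fabp3, 3 of them at muscle sums above 1000, and the chow KI mice with 471 and 532 CPM of Fabp5 are those with lymphocyte sums of 139 and 543.

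Acsl1, the long-chain acyl-CoA synthetase of adipocytes (chromosome 8, 46471037 to 46536051), had the largest fall of the 10 genes. In inguinal WAT on HFD the WT mice had 864, 1389 and 2190 CPM and the KI mice 503, 566 and 981 CPM. All KI mice but mouse 6 lay below every WT mouse. The mean fell from 1392 ± 399 to 632 ± 160 CPM (SD, n = 8 each), with a log2 fold change of -1.13 (SE 0.17, adjusted p = 1.20e-04 from edgeR) and the rank of 480 by p among the 16471 genes tested. The exact permutation p was 3.11e-04 (adjusted 0.00699), and the call held without each of the 16 mice (-1.26 to -1.02). On chow the genotypes overlapped, with 521, 858 and 1205 CPM in WT and 699, 947 and 1318 CPM in KI mice (log2 fold change 0.11, SE 0.19, adjusted p = 0.767). In BAT, 4 of 6 KI mice lay below every WT mouse, with 1562, 1780 and 1949 CPM in WT and 1278, 1526 and 2089 CPM in KI mice (-0.22, SE 0.13, adjusted p = 0.323). The adipocyte markers, the cells in which Acsl1 is abundant, summed to 13439 to 19384 CPM in WT and 12832 to 21327 CPM in KI mice on HFD, with 3 of 10 higher and 3 lower in KI mice.

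Diet was compared within each genotype in 1 fit of the 4 inguinal groups. The HFD and chow samples are in separate tables with different depths, so diet cannot be told apart from a difference between these sets. In WT mice 2 of the 10 genes were higher on HFD, Vldlr (0.61, SE 0.15, adjusted p = 0.00183) and Acsl1 (0.65, SE 0.19, adjusted p = 0.00652), and none was lower, where 13.1% of 17400 genes were higher and 15.2% lower. The call of Acsl1 was lost without chow WT mouse 2, 4, 5 or 7 or HFD WT mouse 3, 4 or 5 (0.50 to 0.64, adjusted p = 0.0111 to 0.0273). In KI mice 2 of the 10 were lower on HFD, Fabp5 (-0.86, SE 0.19, adjusted p = 6.52e-04) and Slc27a1 (-0.76, SE 0.19, adjusted p = 0.00227), and none was higher, where 15.2% of all genes were higher and 15.4% lower. Without chow KI mouse 1, Slc27a1 was at -0.50 (adjusted p = 0.0223). Without chow KI mice 1 and 3 and the other 4 inguinal mice above 100 CPM of lymphocyte markers, neither was called (Fabp5 -0.40, adjusted p = 0.0552, and Slc27a1 -0.43, adjusted p = 0.0636).

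For Acsl1 and Fabp5 the estimated diet difference had opposite signs in the genotypes, but for each gene it was called in 1 genotype only. Acsl1 in KI mice was at -0.58 (SE 0.19, adjusted p = 0.0151) and Fabp5 in WT mice at 0.55 (SE 0.19, adjusted p = 0.0207). Acsl1 was at 891 ± 219 CPM on chow (n = 7) and 1392 ± 399 on HFD (n = 8) in WT mice, and at 968 ± 239 (n = 6) and 632 ± 160 (n = 8) in KI mice (SD). Fabp5 was at 222 ± 45.9 and 324 ± 58.5 CPM in WT and at 329 ± 135 and 178 ± 47.1 CPM in KI mice. The genotype-by-diet term, the difference of the KI effect on HFD from that on chow, was -1.41 for Fabp5 (SE 0.27, adjusted p = 0.00422 from edgeR), the only call among the 10, where 0.425% of 17400 genes were called lower and 0.207% higher. For Acsl1 it was -1.23 (SE 0.27) and missed the call at an adjusted p of 0.0108, with calls by DESeq2, with RLE size factors, without mitochondrially encoded genes and in the fit of all 6 groups. Acsl1 was called in 7 of the 29 fits that left out 1 mouse (adjusted p = 0.00418 to 0.0281 from edgeR). It was not called without the inguinal mice above 100 CPM of lymphocyte markers. The call of Fabp5 was lost without chow KI mouse 1 (-1.28, adjusted p = 0.0109) and without the 6 inguinal mice above 100 CPM of lymphocyte markers (-0.94, adjusted p = 0.0304). None of the other members was called for this term by edgeR or DESeq2.

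Tissues were compared within genotype in 1 fit of the 4 HFD groups, again from separate tables, and whether the same mice gave both tissues is not stated. In WT mice Fabp3 (9.48, SE 0.90) and Gpihbp1 (0.53, SE 0.15) were higher in BAT and Lpl (-0.82, SE 0.18) and Slc27a1 (-0.44, SE 0.14) lower, which makes 2 and 2 of 10 (the call of Slc27a1 was lost in 7 of 28 fits that left out 1 mouse, adjusted p up to 0.0230), where 26.9% of 17214 genes were higher and 29.0% lower. In KI mice 4 of the 10 were higher in BAT, Fabp3 (10.02, SE 0.91), Acsl1 (1.30, SE 0.16), Vldlr (1.09, SE 0.13) and Gpihbp1 (0.70, SE 0.15), and 2 were lower, Slc27a1 (-0.65, SE 0.14) and Fabp4 (-0.36, SE 0.12, adjusted p = 0.0099971, called in only 6 of the 28 fits), where 28.4% were higher and 30.6% lower. The genotype-by-tissue term was called for 2 of 10, both positive, where 1.58% of genes were positive and 1.24% negative. These were Vldlr, given above, and Acsl1 (0.96, SE 0.23, adjusted p = 0.00920), for which the call was lost in 22 of 28 fits that left out 1 mouse (adjusted p up to 0.0203, term 0.84 to 1.07), as well as without the mice above 1000 CPM of muscle markers (1.00, adjusted p = 0.0638) and without those above 100 CPM of lymphocyte markers (0.94, adjusted p = 0.0197). Fabp5 had a term of 0.83 (SE 0.24, adjusted p = 0.0316).

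The genes around these steps were counted in 6 lists, also chosen with earlier results of these data known. These counts are to be read beside the shares of all genes called higher and lower. The shares were 6.21% and 5.24% on HFD, 1.96% and 1.27% on chow, and 1.36% and 0.475% in BAT. Among acyl-CoA thioesterases, which undo what Acsl1 does by splitting acyl-CoA, 5 of 11 tested were higher and none lower in KI inguinal WAT on HFD, with a list median of 0.47 beside 0.01 over all genes. Acot2, the mitochondrial thioesterase, rose from 5.98 ± 0.89 to 26.6 ± 5.84 CPM (SD, n = 8 each, log2 fold change 2.16, SE 0.14, adjusted p = 6.63e-09). It rose on chow as well, from 10.7 ± 3.57 (n = 7) to 41.1 ± 11.5 CPM (n = 6, 1.93, SE 0.22, adjusted p = 1.46e-04), where 2 of 11 were higher. In BAT it rose from 51.5 ± 12.6 to 233 ± 114 CPM (n = 6 each, 2.14, SE 0.37, adjusted p = 0.00624), where 2 of 12 were higher, among them also Acot12, which acts on acetyl-CoA (1.72, SE 0.23, adjusted p = 4.68e-04). Acot1 is a close copy of Acot2 with which reads may be shared, and its own log2 fold changes were 0.31, -1.16 and -0.10, none called. On HFD Acot4, Acot6, Acot13 and Them4 were the other calls (0.52 to 0.96), and on chow Acot13 (0.78).

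**Figure D5:**
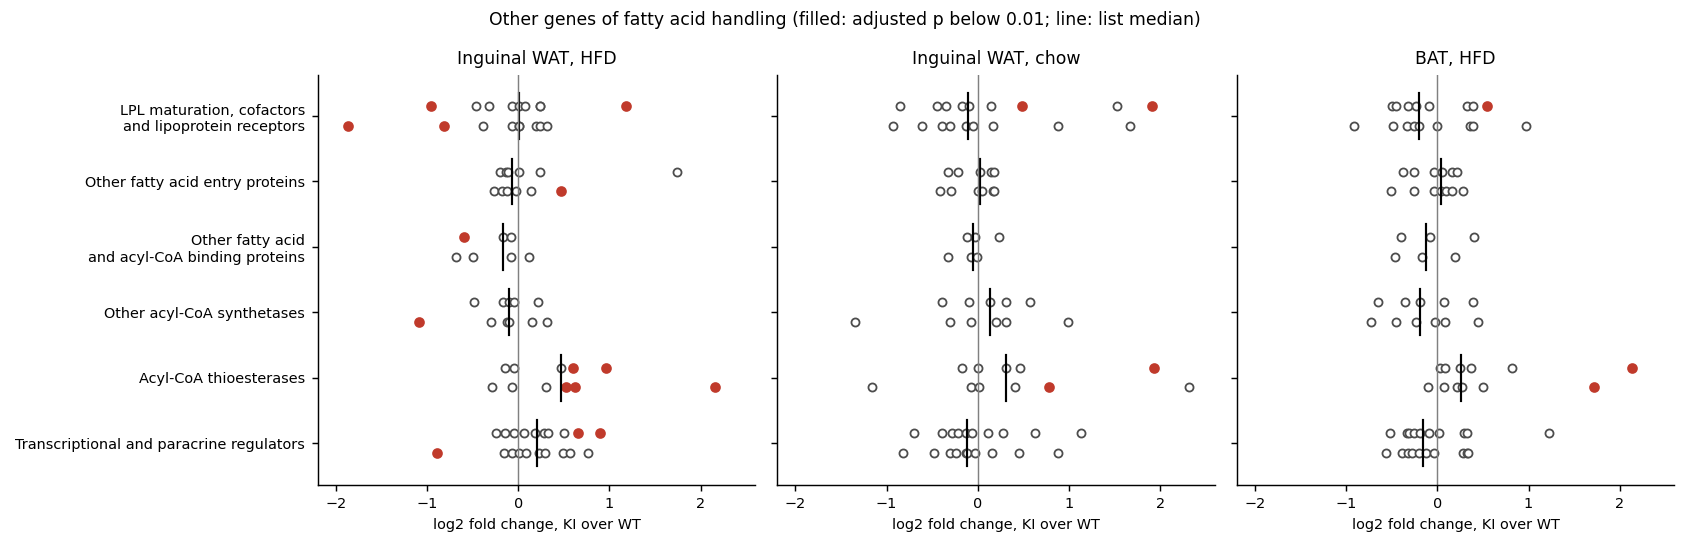
Log2 fold change of KI over WT mice (x axis) for the tested genes of 6 lists of fatty acid handling (y axis) in the 3 settings; each point is a gene, filled where the adjusted p was below 0.01, and the short black line is the list median. The thioesterase list has medians of 0.47, 0.31 and 0.26, with Acot2 at 2.16, 1.93 and 2.14.

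Among the genes of lipase maturation, apolipoproteins and lipoprotein receptors, 1 of 18 was higher on HFD (median 0.00). Apoe, the ligand of several of these receptors, rose from 2588 ± 311 to 5850 ± 547 CPM (SD, n = 8 each, log2 fold change 1.18, SE 0.09, adjusted p = 7.38e-08). Angptl8 fell from 12.6 ± 3.65 to 6.45 ± 1.67 CPM (-0.96, SE 0.19, adjusted p = 0.00134) and Apoc1 from 57.1 ± 13.4 to 32.4 ± 4.84 CPM (-0.81, SE 0.13, adjusted p = 2.10e-04). On chow 2 of 18 were higher and none lower, Angptl8 (1.91, SE 0.35, adjusted p = 0.00433) and Sel1l (0.48, SE 0.10, adjusted p = 0.00653), so that Angptl8 had calls of opposite sign on the 2 diets. In BAT 1 of 17 was higher, again Sel1l (0.55, SE 0.11, adjusted p = 0.00589), an endoplasmic reticulum protein needed for Lpl to leave that compartment, and Lpl itself was called in none of the 3 comparisons.

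The remaining lists held few calls. Among other entry proteins 1 of 12 was higher on HFD, Got2 (0.47, SE 0.08, adjusted p = 2.80e-04), known as the plasma membrane fatty acid binding protein and as a mitochondrial aminotransferase, and none of 11 on chow or 13 in BAT was called. Among other binding proteins 1 of 7 was lower on HFD, Dbi, which carries acyl-CoA (1722 ± 286 to 1133 ± 181 CPM, -0.60, SE 0.11, adjusted p = 0.00101), and none of 6 elsewhere. Among other acyl-CoA synthetases 1 of 11 was lower on HFD, Acss2, which activates acetate (-1.09, SE 0.20, adjusted p = 7.92e-04), and none of 11 in each other comparison. Of 20 transcriptional and paracrine regulators, 2 were higher and 1 lower on HFD, with Vegfa (0.89, SE 0.12, adjusted p = 3.45e-05) the largest rise and the apelin receptor Aplnr (-0.89, SE 0.17, adjusted p = 0.00128) the fall, and none was called on chow or in BAT.

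Within groups most pairs of the 10 genes were weakly correlated. Over the 41 columns, as deviations of log2 CPM from the group means, Pearson's r for the 45 pairs of members ran from -0.45 (Fabp3 with Fabp4) to 0.55 (Lpl with Fabp4), with a median of 0.11. These correlations describe samples that share a library, a depth and a tissue composition within each mouse. The same was not computed for pairs of other genes. The genes most like each member were sought among 13108 with a mean of at least 1 CPM in every group. Fabp3, with a mean of 0.893 CPM in WT mice on chow, was not among these. They were other genes in each case, which says nothing about the members, since so few of the ranked genes are members. Sec62 came closest to Lpl (r = 0.89, rho = 0.69, and r = 0.78 without the 2 mice farthest out), followed by Lamb1 and Hmgn5. For Gpihbp1 they were Robo4 (r = 0.80, rho = 0.77), an endothelial receptor, A230087F16Rik and Palm. For Angptl4 they were the heat shock genes Hspa1a (r = 0.72, rho = 0.61), Hsp90ab1 and Stip1. Vldlr was most like Cfl2 (r = 0.74, rho = 0.70), Rab10 and Kpna3, and Cd36 most like Nipsnap3b (r = 0.81, rho = 0.80), Gpr17 and Fzd1. Slc27a1 was most like Acacb (r = 0.83, rho = 0.83), the acetyl-CoA carboxylase that controls entry of fatty acids into mitochondria, Pcsk4 and Dvl2. Fabp3 was most like Nrap (r = 0.77, rho = 0.76), Srl and Des, which are muscle genes. Fabp4 was most like Dnajc15 (r = 0.74, rho = 0.65), Acadl and Hacl1, Fabp5 most like Slc25a10 (r = 0.78, rho = 0.76) and also like Zwilch, and Acsl1 most like Pde3b (r = 0.75, rho = 0.70), Pex13 and Cpt2.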

How the data were processed

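Polyadenylated RNA was sequenced as 150-base read pairs. Per the labels and the study's methods, the authors used cutadapt for trimming, STAR for alignment to GRCm38 and featureCounts for counting, and deposited gene counts, 1 table per tissue and diet, with gene lengths. Versions, annotation release and strand setting are not given in the sources used here. The counts are raw. Of 54838 entries, 1884 had no count or length, and 99 symbols listed again with identical values were used once, which left 52853 genes. The labels name mice as replicates and give no batch.

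The 10 genes and all lists were chosen with earlier results of these data known. Counts were tested with edgeR 4.0.16 in R 4.3.3 (TMM factors, low-count filter, robust quasi-likelihood fit, Benjamini-Hochberg adjustment over all genes tested, call below 0.01), per table for genotype and jointly for diet, tissue and the interaction terms. CPM used TMM factors over the 41 columns, with a prior count of 2 for log2 values. Exact 2-sided permutation tests compared single genes (30 tests) and ratios (18 tests). For ratios the limit was an adjusted p of 0.05, and none lay below 0.01 (smallest 0.0112). Genes named from lists were the called ones with the largest rise and fall in each comparison. Other called list members named beside them, and the marker genes, were added after their values were seen. Likeness took the 3 genes most correlated with each member. Some genes that these rules select are not reported here. Results were recomputed with DESeq2 1.42.0, with size factors by RLE, with no filter, without mitochondrially encoded genes, with the replicate number as a block, in 1 fit of all groups, at a threshold of 0.05 and without each mouse in turn. Mice high in muscle or lymphocyte markers were left out, and principal transcript lengths used, as alternatives chosen after seeing the data. The test was checked on simulated counts.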

Additional observations from a re-analysis of the deposited data

Results flagged for a closer look

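In 9 of the 60 combinations of gene and group, 1 mouse stood apart from the rest of its group by Dixon's criterion on unlogged CPM. Chance gives about 3.0 if the values are independent and normally distributed. Skewed values depart from this, as for Fabp3 in WT inguinal WAT on HFD (mean 3.89, median 1.77 CPM), so the excess cannot be read as such. Lpl was low in BAT KI mouse 5 (2161 CPM). Vldlr was high in chow KI mouse 4 (165 CPM) and in BAT KI mouse 5 (340 CPM). Cd36 was high in HFD WT mouse 4 (3941 CPM) and Slc27a1 in chow KI mouse 1 (1078.5 CPM). Fabp3 was high in chow KI mouse 4 (42.1 CPM), in HFD WT mouse 1 (16.8 CPM) and in HFD KI mouse 3 (19.1 CPM), which had skeletal muscle marker sums of 79321, 1357 and 4716 CPM, and the part of muscle in these values was not tested. Acsl1 was high in HFD KI mouse 6 (981 CPM), the only KI mouse of its group inside the WT range.

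The genotype difference itself differed between settings for 3 genes by an interaction term in edgeR. Fabp5 differed between diets in inguinal WAT (-1.41, adjusted p = 0.00422), and Vldlr (0.98, adjusted p = 0.00148) and Acsl1 (0.96, adjusted p = 0.00920) differed between BAT and inguinal WAT on HFD. In each case the compared sets come from separate tables, and diet or tissue cannot be told apart from a difference between those tables.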

How the results depend on the processing

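Acsl1 and Fabp5 in inguinal WAT on HFD were called under every alternative run, including each of the 16 leave-outs, and a threshold of 0.05 added Vldlr to them. Other counts of called members moved. With DESeq2 they were 1 for genotype on chow, 3 for genotype in BAT, 4 for diet in KI mice, 8 for tissue in WT mice and 2 for genotype by diet. A threshold of 0.05 gave 1, 3, 4, 8 and 2 for these, 4 for diet in WT mice, 8 for tissue in KI mice (6 at 0.01) and 3 for genotype by tissue. The fit of all 6 groups gave 1 on chow, 0 in BAT, 2 for genotype by diet and 1 for genotype by tissue. Leaving out mitochondrially encoded genes gave 2 in BAT, 4 for diet in KI mice, 2 for genotype by diet and 1 for genotype by tissue, no filter gave 2 in BAT, and RLE factors gave 2 for genotype by diet. Without muscle-high mice the counts were 1 for diet in WT mice, 2 for tissue in WT mice and 1 for genotype by tissue. Without lymphocyte-high mice they were 0 for diet in KI mice, 0 for genotype by diet, 2 for tissue in WT mice and 1 for genotype by tissue. Principal transcript lengths kept 22 of 60 places. Where construction does not show it, the cause was not tested.

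Leaving out each mouse gave 0 to 1 calls on chow, 0 to 1 in BAT, 1 to 3 and 1 to 4 for diet in WT and KI mice, 3 to 5 and 5 to 7 for tissue, 0 to 2 for genotype by diet, 1 to 2 for genotype by tissue and 3 to 6 ratios.

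Some values that were not called changed sign. Cd36 on chow went to -0.0016 without mitochondrially encoded genes and -0.0083 with the block. Fabp4 by diet went to 0.00093 with no filter. Without lymphocyte-high mice, Slc27a1 (-0.094) and Acsl1 (-0.19) on chow, Cd36 for diet in KI mice (-0.033), Fabp4 by diet (0.088) and Angptl4 by tissue (-0.0051) reversed. Without muscle-high mice, Vldlr (0.15) and Cd36 (-0.020) for diet in KI mice and Vldlr for tissue in WT mice (-0.021) did. Over the leave-outs, Gpihbp1 ran from -0.019 to 0.12 and Fabp3 from -0.40 to 1.27 on HFD, and Cd36 from -0.087 to 0.11 on chow. In BAT, Lpl ran from -0.010 to 0.26, Angptl4 from -0.052 to 0.18, Cd36 from -0.045 to 0.14 and Fabp5 from -0.15 to 0.096. For diet in KI mice, Vldlr ran from -0.16 to 0.12, Cd36 from -0.015 to 0.18 and Fabp3 from -1.89 to 0.13, the last without chow KI mouse 4 (-1.10 with all mice). By diet Fabp4 ran from -0.055 to 0.058, and by tissue Angptl4 from -0.11 to 0.12 and Fabp3 from -0.34 to 1.29. The ratio of Slc27a1 to Cd36 on chow ran from -0.039 to 0.44, and in BAT Angptl4 to Lpl from -0.25 to 0.090 and Gpihbp1 to Lpl from -0.13 to 0.13.

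Same-numbered mice were no pairs by the labels, and their deviations did not correlate in every pair (-0.26 to 0.69 on HFD, -0.22 to 0.19 on chow, -0.15 to 0.31 in BAT). With the replicate number as a block, 2 members were called on HFD, 0 on chow and 2 in BAT. Each sample correlated best with its own number in 1 of 8, 1 of 6 and 2 of 6 pairs. Fabp3 in inguinal WAT rested on 2 to 493 counts per mouse, which limits its values most.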
